A study of Danio rerio with 7 samples.

Results

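The genes described here are 35 zebrafish genes of DNA repair and the Fanconi anaemia pathway, taken by symbol from a count table of 32105 genes. Each of the 35 symbols matched 1 row of the table (mre11a under the symbol MRE11), and 34 passed the filter on low counts. Polyadenylated RNA was measured in gata1-positive cells, labelled as erythroid, of zebrafish embryos at 40 hours post fertilization. There were 4 libraries from siblings (replicates 1, 3, 4 and 5) and 3 libraries from ddx41 mutants (replicates 2, 3 and 4). The ddx41 gene encodes a DEAD-box RNA helicase, and its own transcript was not analysed here. The labels name no ddx41 allele and no genotype for the siblings, and they do not say how many embryos or clutches gave each library. The p-values therefore measure the spread between these libraries, which may be technical.

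DNA repair genes keep the genome intact while red cell precursors divide. The Fanconi anaemia pathway deals with crosslinks between the DNA strands: a core complex places a ubiquitin on the FANCI-FANCD2 pair, which then directs nucleases and homologous recombination to the lesion. Inherited loss of the pathway in humans causes bone marrow failure. Broken ends are otherwise rejoined by homologous recombination, which copies an intact sister chromatid, or by non-homologous end joining, which ligates the ends directly. Excision pathways remove damaged or mismatched bases, and replication protein A coats the single-stranded DNA exposed at replication forks, at resected ends and during excision.

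The libraries held 11814324 to 14363255 counts each. Levels are given as CPM, the count relative to library size with TMM scaling between libraries. Erythroid markers were abundant in every library. Their 19 genes summed to between 107481 and 155302 CPM in the siblings and to between 51530 and 105108 CPM in the mutants. The globin gene hbae3 held 39983 to 54722 CPM of this in the siblings and 12833 to 31469 CPM in the mutants. Without hbae3 the erythroid sums overlapped. Of the 19 genes, 2 were called higher, 2 (hbae1.3 and hbae3) were called lower and 15 were not called. Those called higher were the globin gene hbae5 (1.64-fold, edgeR adjusted p = 0.0317) and the slc4a1a entry ENSDARG00000024560 (3.77-fold, 0.000104). The other entry of that symbol (ENSDARG00000012881) was not called. Macrophage markers (19 genes) summed to between 949.7 and 1759.5 CPM in the siblings and to between 467 and 892 CPM in the mutants. The mfap4 entry ENSDARG00000088745 held 204.9 to 745.5 CPM of this in the siblings and 38.6 to 85.1 CPM in the mutants. Without that entry the macrophage sums overlapped. Of the 17 tested macrophage genes, 6 were called lower and 1, spi1b, was called higher (1.77-fold, edgeR adjusted p = 0.0161). Endothelial markers (7 genes) summed to between 29.98 and 49.5 CPM in the siblings and to between 72.2 and 153.4 CPM in the mutants. The neutrophil, thrombocyte, muscle, neural and epidermis sums overlapped between the groups, although single genes in them were called. Of 12 tested muscle genes 3 were called higher and 4 lower, and of 6 epidermis genes 2 were called higher. Of 10 tested neural genes 2 were called lower, and of 7 neutrophil genes 1 was called higher. Without stab2, which rose 8.69-fold (edgeR adjusted p = 2.16e-05), the endothelial sums overlapped too, at 25.4 to 40.04 CPM in the siblings and 32.6 to 74.3 CPM in the mutants. Of the 7 endothelial genes, 2 were called higher, stab2 and egfl7 (4.23-fold, edgeR adjusted p = 0.0158), and 0 lower. Fold changes were positive in 6 of the 7, and tie1, which was not called, did not overlap between the groups. Of the thrombocyte markers, f5 rose 5.21-fold (4.88e-06), gp9 was 3.13-fold lower (0.000366), gp1bb and mpl did not pass, and itga2b was at 0 in 5 of the 7 libraries. The part of other cells in the results below was not tested, and in bulk RNA fewer cells of a type and less RNA per cell cannot be told apart.

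Of the 34 tested members, 3 were higher and 3 were lower in the mutants, and 28 did not pass edgeR's quasi-likelihood test at a Benjamini-Hochberg adjusted p under 0.05. The single-strand binding subunits rpa2 and rpa3 and the mismatch recognition gene msh6 rose. The histone variant gene h2ax and the end-joining genes xrcc6 and prkdc fell. None of the 7 tested Fanconi members passed. The share of members called was 17.6%, and over all 18565 tested genes 16.6% were called (8.87% higher and 7.69% lower), so the members were called about as often as all tested genes. Of the 11580 genes within the members' range of mean CPM, 20.8% were called. The median log2 fold change of the members was -0.06, beside 0.04 over all tested genes, with a range from -1.51 to 1.46. The sibling and mutant values did not overlap at 9 members (26.5%), beside 27.5% of all tested genes. Leaving out ddx41 mutant replicate 4 added rpa1 and xrcc5 and lost xrcc6, which gave 5 members higher and 2 lower.

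**Figure D1:**
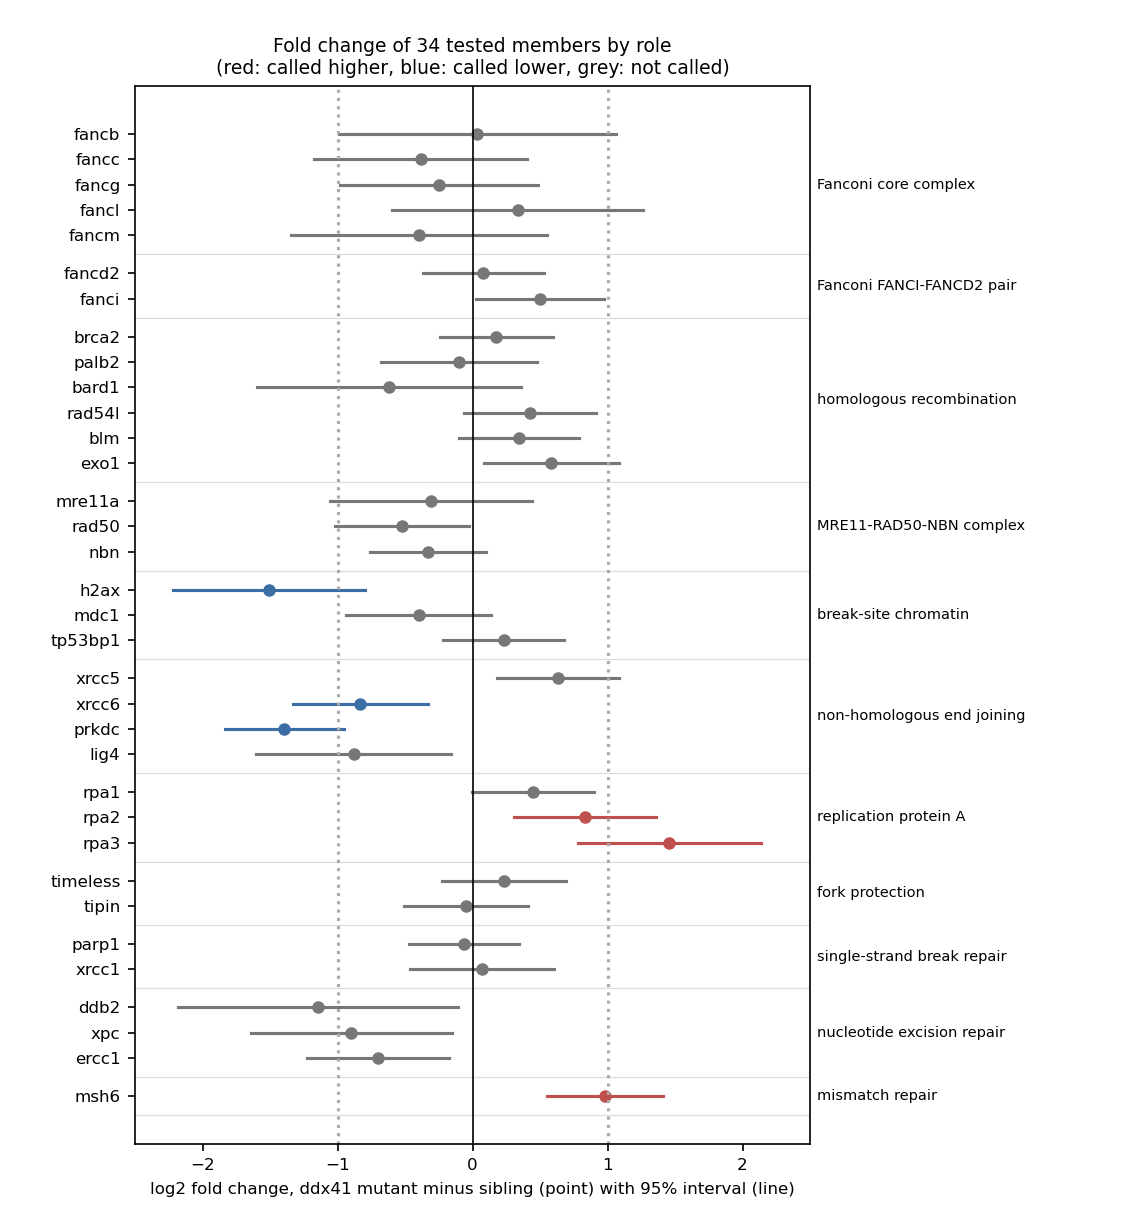
Log2 fold change of each of the 34 tested members, ddx41 mutant minus sibling, grouped by role, with the 95% interval as a line and dotted lines at a change of 1 in either direction. The 3 members called higher (red) are rpa2, rpa3 and msh6, and the 3 called lower (blue) are h2ax, xrcc6 and prkdc.

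The Fanconi core complex was measured at low counts. Its members are fanca, fancb, fancc and fancg, the ubiquitin ligase gene fancl and the DNA translocase gene fancm. For fanca (ENSDARG00000098241) no count was recorded in any of the 7 libraries, which allows a level of up to 0.190 to 0.249 CPM per library (the limit of 3 counts, for counting error only). The gene znf276 overlaps fanca in RefSeq's annotation, and this limit does not cover reads lost to an overlap. The other 5 core genes had mean levels of 3.18 to 7.85 CPM in the siblings and 3.25 to 6.60 CPM in the mutants. Their log2 fold changes ran from -0.40 (fancm) to 0.34 (fancl), and each 95% interval included 0. The sibling values of fancl, at 5.68, 5.12, 1.92 and 5.0 CPM, spanned those of ddx41 mutant replicates 2 and 3, at 4.25 and 4.30 CPM, and only ddx41 mutant replicate 4, at 8.19 CPM, lay above them.

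The FANCI-FANCD2 pair, which the core complex modifies, was measured more precisely. The level of fancd2 (ENSDARG00000053574) was 27.4, 30.1, 26.7 and 25.7 CPM in the siblings and 28.5, 35.2 and 23.5 CPM in the mutants. These values overlapped, with a log2 fold change of 0.08 and a 95% interval from -0.36 to 0.53. The level of fanci (ENSDARG00000026224) was 25.1, 26.6, 26.1 and 18.6 CPM in the siblings and 35.7, 40.6 and 26.3 CPM in the mutants. ddx41 mutant replicates 2 and 3 lay above all siblings and ddx41 mutant replicate 4 among them, and the log2 fold change of 0.50 (SE 0.22) did not pass the test (edgeR adjusted p = 0.142). Of the 7 tested Fanconi members, 1 (fanci) had an unadjusted p under 0.05 (29.8% of all tested genes did), and DESeq2 and limma-voom also called none. Within a library, where the scaling of libraries plays no part, the count of fanci divided by that of fancd2 was 0.725 to 0.977 in the siblings and 1.12 to 1.25 in the mutants. This ratio was chosen after the values were seen and was given no test.

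The 6 homologous recombination members showed no called change. The group holds brca2, a mediator of strand exchange, its partner palb2, bard1 (the partner of BRCA1 in mammals), the strand-exchange motor rad54l, the RecQ helicase blm and the resection nuclease exo1. The level of brca2 (ENSDARG00000079015) was 70.1, 89.0, 69.3 and 63.2 CPM in the siblings and 81.0, 98.7 and 67.6 CPM in the mutants. The groups overlapped, and the 95% interval of the log2 fold change ran from -0.24 to 0.60. The largest positive value in the group was that of exo1, at a log2 fold change of 0.59 (SE 0.24, edgeR adjusted p = 0.108). It was the 1 gene of the 6 with an unadjusted p under 0.05, beside 29.8% of all tested genes. The level of bard1 was 1.83 CPM in ddx41 mutant replicate 2, below the 5.59 and 9.83 CPM of the other mutants and the 6.67 to 13.3 CPM of the siblings. DESeq2 and limma-voom also called none of the 6.

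The MRE11-RAD50-NBN complex binds broken DNA ends and starts their signalling and resection. All 3 of its genes had negative log2 fold changes, of -0.31 for the nuclease gene mre11a, -0.52 for the ATPase gene rad50 and -0.33 for nbn, and none passed the test in edgeR, DESeq2 or limma-voom. The level of rad50 (ENSDARG00000038917) was 60.0, 54.9, 49.3 and 38.8 CPM in the siblings and 41.0, 41.1 and 24.1 CPM in the mutants. Sibling replicate 5 lay below ddx41 mutant replicates 2 and 3, so the groups overlapped (edgeR adjusted p = 0.147, unadjusted p = 0.0412). Of the 3 genes, rad50 was the 1 with an unadjusted p under 0.05, beside 29.8% of all tested genes.

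Among the genes of the chromatin around a break, h2ax fell. H2AX is the histone H2A variant that is phosphorylated beside double-strand breaks, and the marked histone is bound by MDC1. The level of h2ax (ENSDARG00000029406) was 13.2, 12.2, 13.2 and 13.8 CPM in siblings 1, 3, 4 and 5 and 7.0, 3.76 and 3.11 CPM in mutants 2, 3 and 4. All mutants lay below all siblings, and the siblings lay close together. The log2 fold change was -1.51 (SE 0.33), a 2.84-fold lower level (edgeR adjusted p = 0.00636). Histone H2A genes form a family of similar copies, so the counting may have divided reads among them. The values of mdc1 overlapped between the groups, at 34.6 ± 6.82 CPM in siblings (SD, n = 4) and 26.3 ± 8.28 CPM in mutants (SD, n = 3). Those of tp53bp1, whose product favours end joining over resection, were 94.8 ± 8.66 CPM (SD, n = 4) and 111.4 ± 32.7 CPM (SD, n = 3), and neither gene passed.

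Non-homologous end joining begins with the Ku ring, made of Ku70 (xrcc6) and Ku80 (xrcc5), which recruits the DNA-dependent protein kinase catalytic subunit (prkdc), and ends with DNA ligase IV (lig4). The level of prkdc (ENSDARG00000075083) was 77.0, 104.4, 95.3 and 66.5 CPM in the siblings and 32.9, 34.6 and 30.3 CPM in the mutants. All mutants lay below all siblings, and the 3 mutants lay close together. Its log2 fold change was -1.40 (SE 0.21, edgeR adjusted p = 0.000383), and by p it ranked 315 of 18565 genes, ahead of every other member.

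The Ku genes had fold changes of opposite sign. The level of xrcc6 (ENSDARG00000071551) was 33.6, 33.6, 32.4 and 21.5 CPM in the siblings and 18.5, 18.4 and 14.2 CPM in the mutants. The groups did not overlap, and the nearest libraries were sibling replicate 5 and ddx41 mutant replicate 2. It was 1.78-fold lower in the mutants (log2 fold change -0.83, SE 0.23, edgeR adjusted p = 0.025). The level of xrcc5 (ENSDARG00000099298) was 27.3, 35.3, 31.8 and 28.3 CPM in the siblings and 45.8, 60.3 and 36.6 CPM in the mutants. Here all mutants lay above all siblings, by the smallest margin in ddx41 mutant replicate 4, and the log2 fold change of 0.63 (SE 0.21) missed the threshold (edgeR adjusted p = 0.0545). Within each library, the count of xrcc5 divided by that of xrcc6 was 0.813, 1.05, 0.981 and 1.32 in the siblings and 2.48, 3.27 and 2.57 in the mutants. The ratio is free of the scaling of libraries. It does not give the ratio of molecules, since counts were not divided by transcript length, and it was chosen after the values were seen and given no test.

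The level of lig4 (ENSDARG00000060620) was 8.65, 8.06, 11.4 and 6.92 CPM in the siblings and 5.08, 3.53 and 5.65 CPM in the mutants. The groups did not overlap, and the log2 fold change of -0.88 (SE 0.34) did not pass (edgeR adjusted p = 0.0913, and 0.0464 with DESeq2). DESeq2 called more of all genes lower than edgeR did (1889 against 1427). All 4 end-joining members had an unadjusted p under 0.05, as did 14 of the 34 tested members (41.2%) and 29.8% of all tested genes. The call of xrcc6 was lost on leaving out sibling 1, 3 or 4 or mutant 2 or 4 (edgeR adjusted p 0.0667, 0.0648, 0.0617, 0.06 and 0.0729), and that of prkdc was kept without any 1 library (0.000417 to 0.00322).

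**Figure D2:**
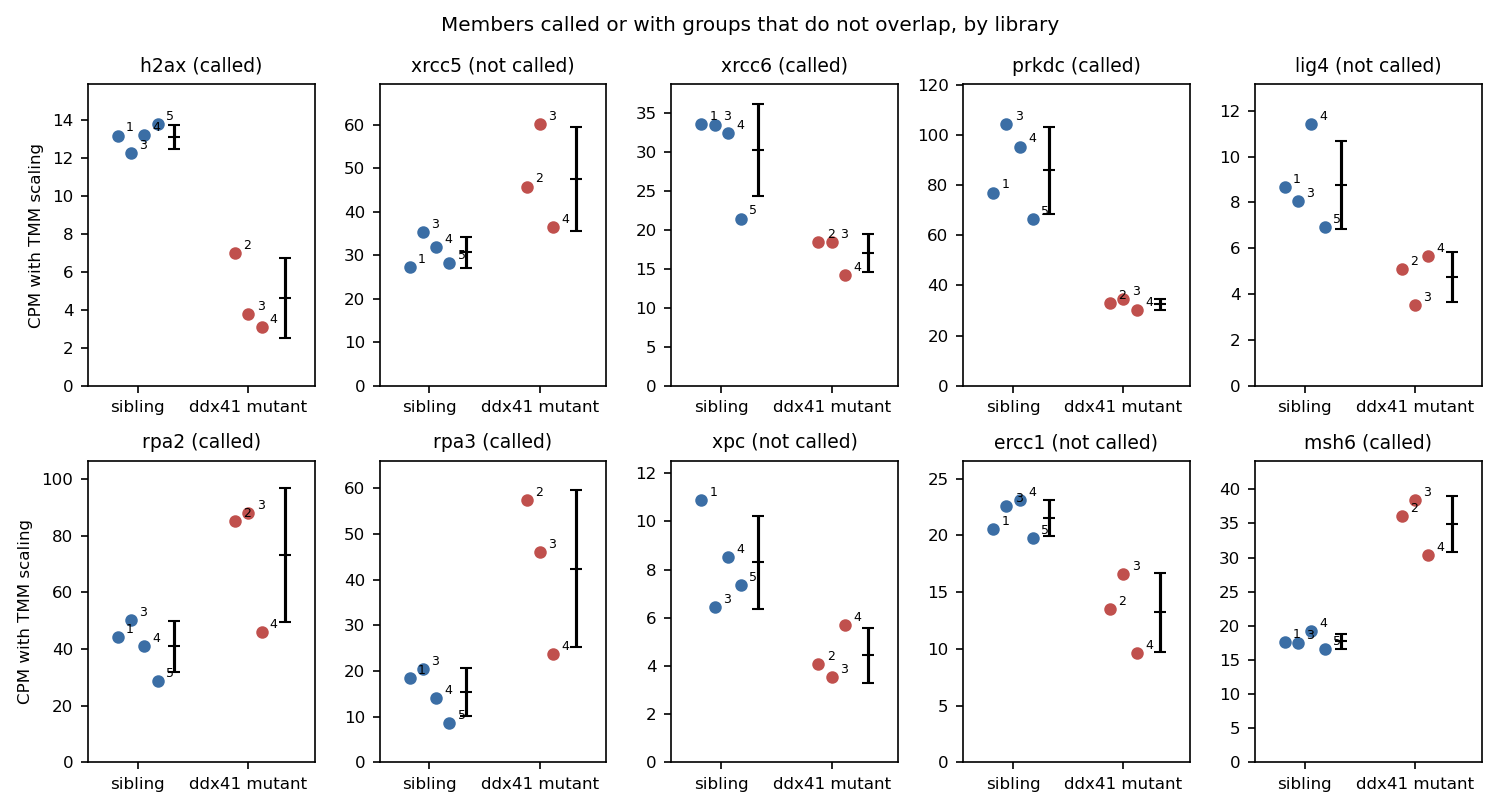
CPM with TMM scaling of the 10 members that were called or whose groups did not overlap, 1 point for each library with its replicate number (blue: siblings; red: ddx41 mutants), with the mean and SD as a black bar. The mutants lie below the siblings for h2ax, xrcc6, prkdc, lig4, xpc and ercc1 and above them for xrcc5, rpa3 and msh6, while for rpa2 ddx41 mutant replicate 4 lies among the siblings.

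Replication protein A is a complex of 3 subunits that binds single-stranded DNA at forks and at resected breaks. All 3 genes had positive fold changes, and the smallest subunit, rpa3, had the largest. The level of rpa3 (ENSDARG00000002613) was 18.6, 20.5, 14.0 and 8.57 CPM in the siblings and 57.4, 46.1 and 23.7 CPM in the mutants. All mutants lay above all siblings, and the lowest libraries of the groups were sibling replicate 5 and ddx41 mutant replicate 4. The log2 fold change was 1.46 (SE 0.32), a 2.75-fold higher level (edgeR adjusted p = 0.00579).

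The level of rpa2 (ENSDARG00000037188) was 44.4, 50.1, 41.0 and 28.8 CPM in the siblings and 85.3, 88.1 and 46.0 CPM in the mutants. It rose 1.78-fold (log2 fold change 0.83, SE 0.25, edgeR adjusted p = 0.0321), although ddx41 mutant replicate 4 lay below sibling replicate 3. This call was lost on leaving out sibling 1, 4 or 5 or mutant 2 or 3 (edgeR adjusted p 0.0574, 0.0833, 0.0978, 0.14 and 0.14). The level of the large subunit gene rpa1 (ENSDARG00000003938) was 73.1, 76.4, 83.2 and 61.2 CPM in the siblings and 96.5, 131.1 and 73.0 CPM in the mutants. These groups overlapped, and the log2 fold change of 0.45 (SE 0.21) did not pass (edgeR adjusted p = 0.174, and 0.044 without ddx41 mutant replicate 4). Within a library, the count of rpa3 divided by that of rpa1 was 0.140 to 0.268 in the siblings and 0.324 to 0.595 in the mutants, again a ratio chosen after its values were seen and not tested.

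The fork protection genes timeless and tipin, whose products travel with the replication fork as a pair, did not pass the test. Their 95% intervals ran from -0.23 to 0.69 and from -0.51 to 0.41 on the log2 scale. The break sensor gene parp1, at 32.3 ± 2.09 CPM in siblings (SD, n = 4) and 30.8 ± 2.31 CPM in mutants (SD, n = 3), had an interval from -0.47 to 0.34, the narrowest of the 34 tested members. The interval of the scaffold gene xrcc1 ran from -0.47 to 0.61. None of these 4 genes had an unadjusted p under 0.05, and DESeq2 and limma-voom called none of them.

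The 3 nucleotide excision repair members had lower mean levels in the mutants, and none passed the test. DDB2 and XPC recognise helix-distorting lesions, and ERCC1 is part of a nuclease that cuts the damaged strand. The level of ercc1 (ENSDARG00000031680) was 20.6, 22.6, 23.1 and 19.8 CPM in the siblings and 13.5, 16.6 and 9.65 CPM in the mutants. The groups did not overlap, with a log2 fold change of -0.70 (SE 0.25, edgeR adjusted p = 0.0666, and 0.0419 with DESeq2). The level of xpc (ENSDARG00000039754) was 10.9, 6.43, 8.51 and 7.35 CPM in the siblings and 4.08, 3.53 and 5.71 CPM in the mutants. The groups again did not overlap, with a log2 fold change of -0.90 (SE 0.35, edgeR adjusted p = 0.095, and 0.0482 with DESeq2). The values of ddb2 overlapped, since sibling replicate 1, at 2.63 CPM, lay below ddx41 mutant replicate 2, at 4.17 CPM (log2 fold change -1.14, SE 0.49, edgeR adjusted p = 0.127). All 3 genes had an unadjusted p under 0.05 (29.8% of all tested genes did), and limma-voom called none of them.

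The mismatch recognition gene msh6 rose. Its level (ENSDARG00000104541) was 17.6, 17.5, 19.2 and 16.6 CPM in the siblings and 36.1, 38.4 and 30.4 CPM in the mutants. All mutants lay above all siblings, and the siblings lay close together. The log2 fold change was 0.98 (SE 0.20), a 1.97-fold higher level (edgeR adjusted p = 0.0041).

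Of the 28 members that were not called, 15 had a 95% interval that lay within a log2 change of 1 in either direction. The intervals of the other 13 reached past that size of change. The counts behind the tested members ran from 22 to 1870 per library, and 23 members had at least 100 counts in every library. An unadjusted p under 0.05 was found for 8 of the 28 (28.6%), of which 3 had positive and 5 negative fold changes, and for 15.9% of all tested genes that were not called.

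The members also varied together among libraries of the same group. Sibling replicate 5 had the lowest value of the 4 siblings at 23 of 34 members (67.6%), against 26.5% of all tested genes. ddx41 mutant replicate 4 had the lowest value of the 3 mutants at 23 of 34 (67.6%), against 34.4% of all tested genes. Summed over the members, the level was 1196, 1268 and 1211 CPM in sibling replicates 1, 3 and 4 and 948 CPM in sibling replicate 5. In ddx41 mutant replicates 2, 3 and 4 the sum was 1254, 1454 and 965 CPM, so the 2 groups overlapped and the lowest library of each lay well below the rest.

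Both of these libraries also had the lowest erythroid marker sum of their group (107481 CPM in sibling replicate 5 and 51530 CPM in ddx41 mutant replicate 4). They had the highest epidermis marker sums, at 1056 and 1402 CPM. The other siblings had 273.7 to 726.6 CPM and the other mutants 732.8 and 759.5 CPM. The gene krt4 held 838.7 and 924 CPM of these highest sums. Among siblings, krt4 and krt8 were highest in replicate 5, krt5, epcam and cldni in replicate 1 and krt91 in replicate 4. Among mutants, krt4, krt5, krt8 and krt91 were highest in replicate 4, epcam in replicate 2 and cldni in replicate 3. Endothelial marker sums were highest in both libraries too, at 49.5 and 153.4 CPM. In the other siblings they were 29.98 to 36.3 CPM and in the other mutants 72.2 and 123.5 CPM. Neural marker sums were also highest in both libraries (248.5 and 293.7 CPM). The other siblings had 125.5 to 213.1 CPM and the other mutants 76.0 and 90.9 CPM. Of the neural entries, elavl3, tubb5, both of snap25a and stmn1b ENSDARG00000033655 were highest in sibling replicate 5 (tubb5 at 67.7 CPM, next 33.2 CPM). Highest in other siblings were elavl4, both fabp7a entries, gfap, sox2 and stmn1b ENSDARG00000004169. Among the mutants, replicate 4 was highest for all these entries but snap25a ENSDARG00000058117 and stmn1b ENSDARG00000004169. The part of these markers in the members' levels was not tested. With both libraries left out, a choice made after seeing the data, 4 members were called higher and 3 lower: h2ax, xrcc6, prkdc, rpa2, rpa3 and msh6 again, with edgeR adjusted p values from 0.00117 to 0.0425, and xrcc5 (0.0454).

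**Figure D3:**
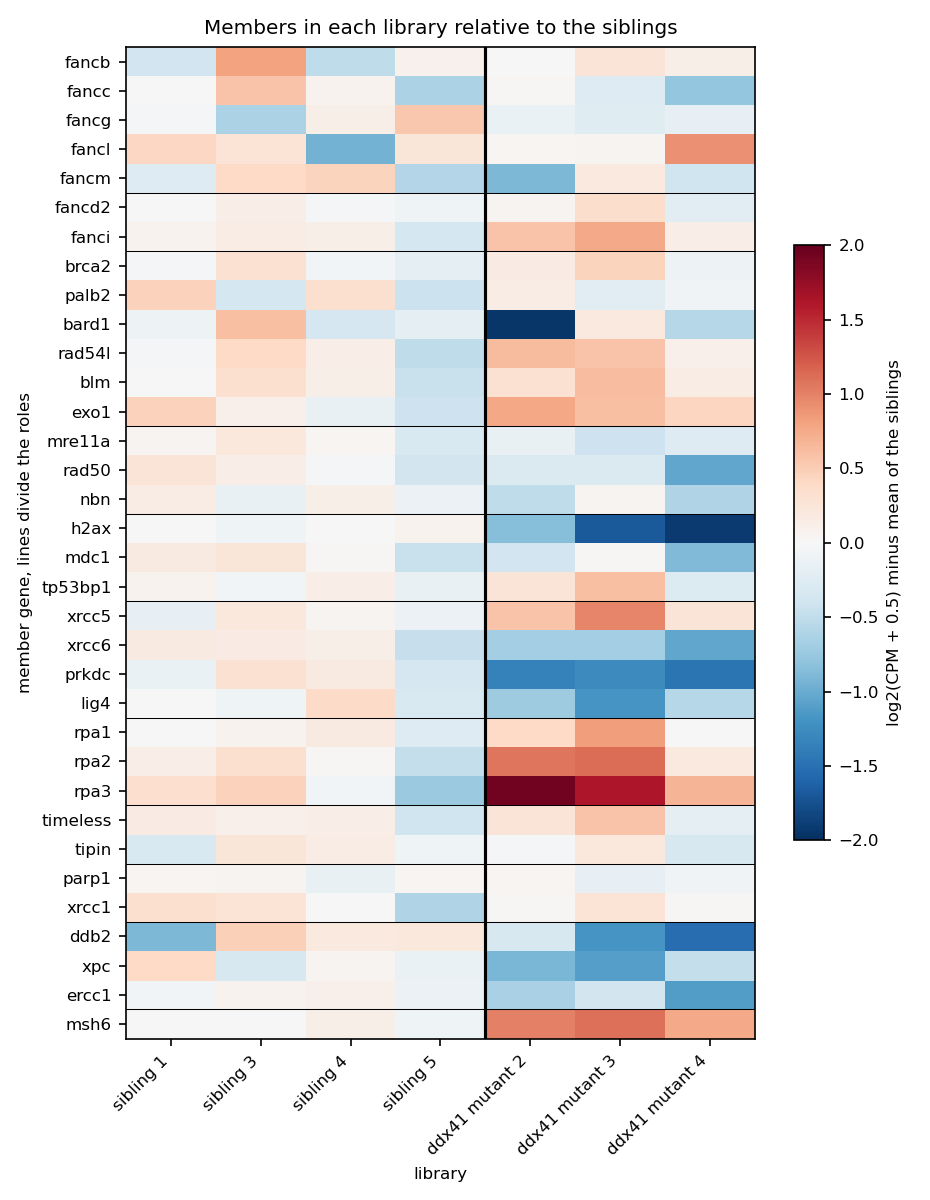
Each of the 34 tested members (rows, in role order) in each library (columns), as log2(CPM + 0.5) minus the mean of the siblings, so that red is above and blue below the siblings. The columns of sibling replicate 5 and ddx41 mutant replicate 4 are bluer than those of the other libraries in their groups, and h2ax, prkdc, rpa3 and msh6 show the same direction in all 3 mutants.

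Other genes of the same pathways, and a list of the replicative helicase and clamp, were counted from lists that hold none of the 35 members. Of 124 tested genes in 8 lists, 22 rose and 7 fell (23.4%), and their log2 fold changes had a median of -0.01. The 23.4% includes the list of the replicative helicase and clamp, which is of replication and not of repair. That list supplied 5 of the 22 and 0 of the 7. The share called was 16.6% of all tested genes and 20.8% of the genes within the members' range of mean CPM. Omitting mutant library 2 left 14 higher and 4 lower, and omitting mutant library 3 left 13 higher and 10 lower. Leaving out each library in turn, 10 of the 22 and 3 of the 7 passed in all 7 cases. The list of the replicative helicase and clamp held the largest share, with 5 of 8 higher: mcm2, mcm3, mcm4, mcm5 and mcm6, led by mcm3 (2.84-fold, edgeR adjusted p = 0.000537) and mcm4 (2.81-fold, 0.000809). The call of mcm5 was lost without ddx41 mutant replicate 3 (0.0516). The called mcm6 entry was ENSDARG00000057683, and the other entry of that symbol (ENSDARG00000033231) was not called.

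In the list of further Fanconi and crosslink repair genes, 3 of 23 rose and 2 fell. Transcripts of faap24, which encodes a partner of FANCM, were at 23.6 ± 3.26 CPM in the 4 siblings (mean ± SD) and at 81.5 ± 12.5 CPM in the 3 mutants, a 3.45-fold rise (edgeR adjusted p = 2.76e-05). The gene cenpx, which encodes a histone-fold protein of the same FANCM-bound complex, rose 2.4-fold (edgeR adjusted p = 0.00998). The nuclease gene dclre1b was 2.13-fold lower (0.0107), and rev3l, the catalytic subunit gene of a translesion polymerase, was 1.73-fold lower (0.0201). The calls of cenpx, dclre1b and rev3l were lost without ddx41 mutant replicate 2 (0.089, 0.0618 and 0.11), and that of rev3l also without sibling replicate 5 (0.056).

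Of 26 further homologous recombination genes, 3 rose and none fell, led by hrob (1.95-fold, edgeR adjusted p = 0.0078), which recruits the MCM8-MCM9 helicase, and recql4 (2.15-fold, 0.011), a RecQ helicase gene, with the nuclease gene dna2 at 1.59-fold (0.021). The call of recql4 was lost without ddx41 mutant replicate 2 (0.0794), and that of dna2 held in 1 of the 7 cases. At an unadjusted p under 0.05 there were 6 of the 26, beside a share of 29.8% over all tested genes. Of 10 further end-joining genes, nhej1, which encodes the ligation factor XLF, was 2.57-fold higher (0.00788) and aplf, an end-joining cofactor gene, was 3.01-fold lower (0.00206). The call of nhej1 was lost without ddx41 mutant replicate 3 (0.0549).

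Among 12 break signalling genes 4 rose and 1 fell. The gene rif1, which acts with 53BP1, was at 84.4 ± 12.03 CPM in the 4 siblings (mean ± SD) and rose to 185.4 ± 40.6 CPM in the 3 mutants (edgeR adjusted p = 0.00133). The chromatin reader gene l3mbtl1 (ENSDARG00000014828) had means of 0.613 CPM in siblings and 3.5 CPM in mutants (edgeR adjusted p = 0.0145, and 0.052 without ddx41 mutant replicate 3). Its sibling values were 0.692, 0.388, 0.230 and 1.14 CPM, so it passed the filter on low counts through its mutant values. Its call is therefore no support for a rise, although it is counted in the 4 here and the 22 above. A filter of at least 5 CPM in at least 3 libraries left it untested. The other entry of that symbol (ENSDARG00000094801) was not called. The ubiquitin ligase gene herc2 was the gene that fell, with 257.3 ± 37.4 CPM in siblings and 109.7 ± 20.6 CPM in mutants (0.000831).

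Of 21 genes of base excision and single-strand break repair, 4 rose and 2 fell. The PARP family gene parp3 rose 3.56-fold (edgeR adjusted p = 0.0018), and the uracil glycosylase gene ung (ENSDARG00000042527) rose 2.02-fold (0.0188), as did apex2 (1.82-fold, 0.0331) and mpg (1.98-fold, 0.0341), which encode an endonuclease and a glycosylase. The other ung entry (ENSDARG00000094922) was not called. The glycosylase gene neil1 was 2.31-fold lower (0.00554), and parg, whose product removes poly(ADP-ribose), was 1.78-fold lower (0.0134). The calls of ung, apex2 and mpg held in 4, 2 and 1 of the 7 cases that left out a library, and that of parg was lost without ddx41 mutant replicate 2 (0.0625).

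Of 18 nucleotide excision repair genes 1 rose and 1 fell. The riser was ccnh, the cyclin H gene of the TFIIH kinase, at 11.4 ± 2.69 CPM in siblings (SD, n = 4) and 70.4 ± 11.6 CPM in mutants (SD, n = 3), 6.18-fold higher (edgeR adjusted p = 2.56e-06). The gene that fell, uvssa, was 1.85-fold lower (0.0442) and passed in none of the 7 cases that left out a library. Of 6 mismatch repair genes, pms2 rose 1.72-fold (edgeR adjusted p = 0.0306, held in 2 of the 7 cases), and none fell. An unadjusted p under 0.05 was found for 3 of the 6, beside 29.8% of all tested genes.

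**Figure D4:**
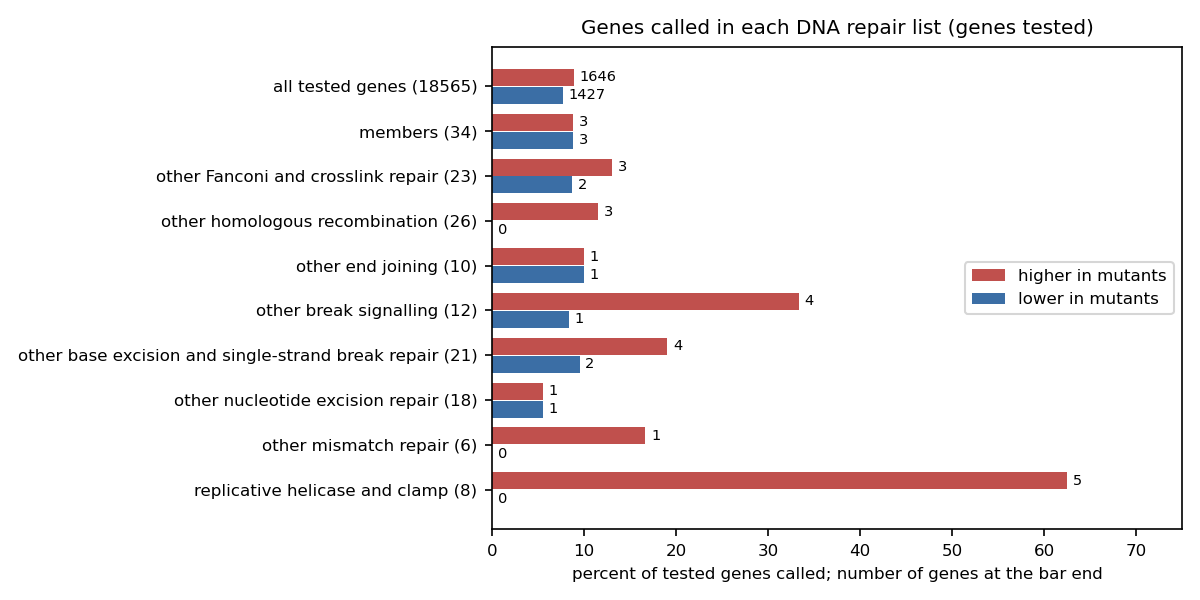
Percent of tested genes called higher (red) or lower (blue) in the mutants, for all tested genes, the 34 tested members and 8 lists of other repair and replication genes, with the number of genes at each bar's end and the number tested in brackets. The members' bars are about as long as those of all tested genes, and the replicative helicase and clamp list has the longest bar, with 5 of 8 higher.

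**Figure D5:**
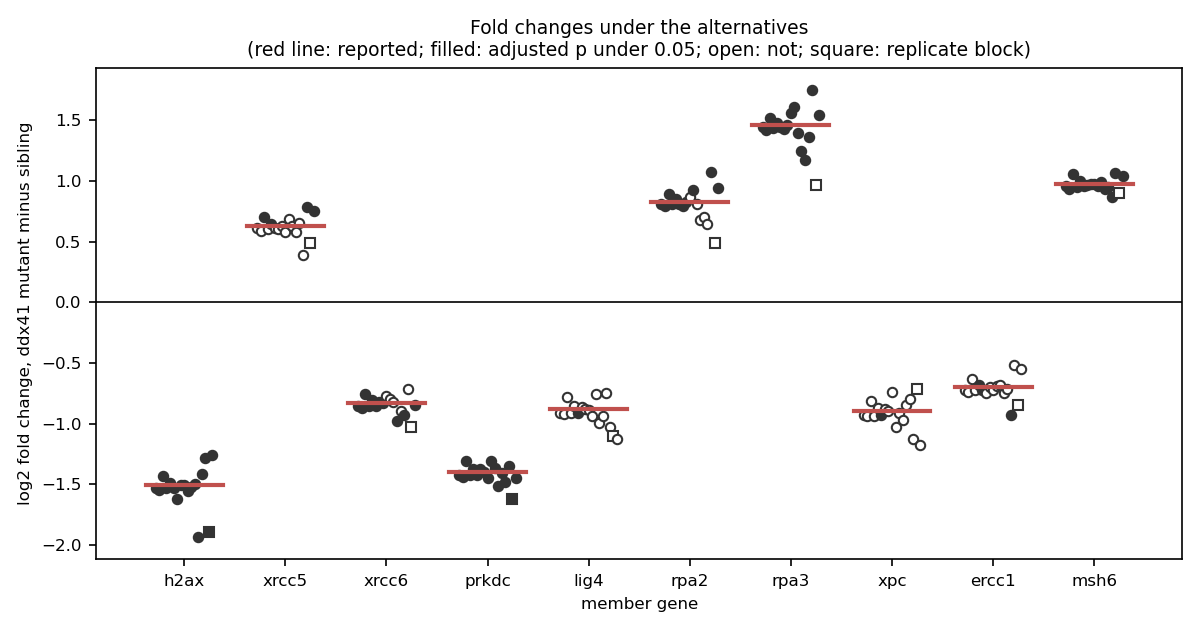
Log2 fold changes of the 10 members that were called or whose groups did not overlap, as reported (red line) and under 17 alternative settings (points; filled where the adjusted p was under 0.05). h2ax and prkdc are filled throughout, while rpa2, xrcc6 and xrcc5 lie on both sides of the threshold with the same sign in every setting.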

How the data were processed

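The authors deposited a table of raw counts, with genes as Ensembl IDs and a column for each of 7 libraries, per the file header; 0 columns belonged to other samples. Trim Galore, Picard, STAR 2.4.2a, DESeq2, Cufflinks 2.2.1 and the build GRCz10 are listed without roles, per the submitters' processing notes. Neither the counting program nor the strand setting is given in the sources used here. Reads of overlapping genes therefore cannot be told apart. In RefSeq's GRCz12tu annotation, genes overlap h2ax (c2cd2l), xrcc6 (desi1b), rpa2 (themis2), msh6 (fbxo11a, kcnk12), fanci (polg), fanca (znf276), ccnh (rasa1a), faap24 (slc7a10b), dclre1b (mmp9), l3mbtl1, rev3l, uvssa, babam1, mcm2 (9 genes), mcm3 and mcm6, and none overlaps prkdc, rpa3 or xrcc5. Some further members that were not called also have overlapping genes. Symbols came from a table that names 26269 of the 32105 IDs, and 125 of 135 pathway symbols and 71 of 81 marker symbols were matched. No sequences or transcript lengths were used.

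The test was edgeR 4.0.16 in R 4.3.3. filterByExpr (minimum count 10, total 15) left 18565 genes, and scaling used TMM. The quasi-likelihood F-test compared mutant with sibling libraries, with Benjamini-Hochberg adjustment over all tested genes. SEs are fold changes divided by the root of F. Alternatives were other scalings and filters, DESeq2 1.42.0, limma-voom (limma 3.58.1), robust fitting, each library left out and a replicate block. In simulated data on 18565 genes, 100 genes were changed 2-fold and 100 were changed 4-fold, all with a mean of at least 5 CPM. Of these, 34 and 88 were recovered, and 5.43% of the 129 calls were false. In the real data 3073 genes were called, so the same adjusted threshold was stricter in the simulation. These shares therefore do not give the power of the real comparison. Libraries within a group differed beyond sampling noise: the chi-square of each pair was 16.0 to 57.9 times its degrees of freedom. The members and lists were chosen with earlier results of these data known. Named were all members that were called or did not overlap, and up to 2 called genes per direction in each pathway list. Genes named beyond this were chosen after their values were seen. Some genes of these pathways are not reported here.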

Additional observations from a re-analysis of the deposited data

Results flagged for a closer look

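Within the siblings, 3 members had 1 library that stood apart from the other 3 (gap over range above Dixon's 95% critical value of 0.829 for 4 samples). Sibling replicate 5 was low for xrcc6, at 21.5 CPM with the next sibling at 32.4 CPM, and for timeless, at 60.5 CPM with the next at 85.7 CPM. Sibling replicate 4 was low for parp1, at 29.1 CPM with the next at 33.05 CPM. Chance flags about 1 in 20 such groups, and 34 members were examined. Groups of 3, as the mutants are, were not examined.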

How the results depend on the processing

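Under 16 alternatives, the calls of h2ax and prkdc passed in all, those of rpa3 and msh6 in 15 (all but the replicate block) and those of rpa2 and xrcc6 in 10. DESeq2 called 6 members lower (lig4, xpc and ercc1 besides the reported 3) and 12 genes of the other repair and replication lists (other pathway genes below) lower. It also called more of all genes, with 1851 higher and 1889 lower, beside 1646 and 1427 in edgeR. With 1 library left out, 1014 to 1471 of all genes were called higher and 874 to 1487 lower (both lowest without ddx41 mutant replicate 2), 2 to 5 members were higher and 2 to 4 lower, and 13 to 24 other pathway genes were higher and 4 to 10 lower. Replicates 3 and 4 occur in both groups, but same-numbered libraries did not deviate together (r = -0.02 and -0.16 across genes), so the numbers were not taken to pair the samples. With the replicate block, 592 genes were higher and 431 lower, 0 members were higher and 2 lower, and 7 other pathway genes were higher (among them mcm3 and mcm4, but not mcm2, mcm5 or mcm6) and 2 lower. Without sibling replicate 5 and ddx41 mutant replicate 4, 4 other pathway genes were lower. In the fit with the replicate block, only replicates 3 and 4, which occur in both groups, inform the comparison of mutants with siblings. Apart from this and from there being fewer samples in the fits that left out libraries, the cause was not tested.

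Signs turned for members that were not called: fancb (-0.011 with upper quartile scaling), tipin (0.028) and parp1 (0.013) with total counts only, fancg (0.062) with the block, and tipin (0.05) and xrcc1 (-0.06) without sibling replicate 5 and ddx41 mutant replicate 4. Leaving out 1 library gave log2 fold changes of -0.17 to 0.42 for fancb, -0.25 to 0.071 for palb2, -0.23 to 0.078 for tipin, -0.12 to 0.18 for xrcc1, -0.12 to 0.21 for fancd2, -0.0098 to 0.30 for brca2, -0.022 to 0.44 for tp53bp1 and -0.051 to 0.49 for fancl. Depth limits the members with low counts, which went down to 22 in a library.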

Other observations

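Genes whose products work in the same complex did not all pass the test. Of the FANCM-bound partners, faap24 and cenpx rose, while cenps, the partner of cenpx, was at 10.1 ± 1.85 CPM in siblings (SD, n = 4) and 11.2 ± 3.34 CPM in mutants (SD, n = 3; edgeR adjusted p = 0.793). Of 4 BRCA1-A complex genes, abraxas1 rose 2.43-fold (edgeR adjusted p = 0.0162, and 0.0897 without ddx41 mutant replicate 2) and babam1 2.33-fold (0.0431, lost in 6 of 7 fits that left out a library), while babam2 was at 11.1 ± 2.87 and 5.97 ± 1.63 CPM and brcc3 at 4.26 ± 0.99 and 5.30 ± 1.93 CPM, and neither passed (0.0827 and 0.644). Beside the 5 helicase genes that rose, mcm7 was at 48.4 ± 4.57 CPM in siblings and 35.2 ± 11.7 CPM in mutants, with groups that did not overlap and a log2 fold change of -0.46 (edgeR adjusted p = 0.21). These genes were chosen after their values were seen, and no difference between them was tested.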
